A study of Drosophila melanogaster with 2 samples.

Results

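Weak distal peaks were sites of low Unc-4 ChIP-seq signal far from promoters, and there were 1719 of them among the 47032 peaks of the ranked list made from both replicates together. They were chosen by 3 criteria. A peak had to rank past 5000 and up to 10000 by signal among the 46847 peaks on the nuclear chromosomes. Its summit had to lie more than 1 kb from every annotated transcript start, and it could overlap no peak of the authors' list thresholded on the irreproducible discovery rate (IDR), a measure of how far peak ranks hold between replicates. Of the 5000 peaks in that rank band, 1788 were distal, and 69 of these overlapped a thresholded peak and were set aside. The remaining 1719 peaks formed 1694 separate regions, and 50 peaks lay in regions shared with another member. Each region was represented by its strongest peak in every count of regions below, and a range of ranks such as 5000 to 10000 leaves out its lower bound.

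The study measured where Unc-4 lay on chromatin in whole Drosophila melanogaster embryos collected 6 to 18 h after laying. The flies, of the strain labelled unc-4-GFP, carried a transgene for an unc-4-eGFP fusion, and an anti-GFP antibody was used for the precipitation, although the antibody label itself names unc-4. There was 1 group with 2 biological replicates, and no other genotype, treatment or stage was compared. Whole embryos mix all tissues, so neither the cell type behind a weak signal nor the share of cells that carried it can be read from these lists.

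Unc-4 is a homeodomain transcription factor known for its work in neurons, and OdsH is its neighbouring paralogue. Homeodomain proteins bind short AT-rich cores such as TAATTA. Enhancers, the distal elements through which such factors are known to act, often lie in introns or between genes. Repeats of GA are bound in flies by GAGA factor and by Pipsqueak, proteins known from open chromatin at promoters, enhancers and Polycomb sites.

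The sequences below show what lay under the strongest weak distal summits of the 4 genes nearest to most of them, leaving out any window that touched a UTR. Each shows the summit base and 50 bases on either side, on the plus strand of the dm6 assembly. Capitals mark, on either strand, the GA repeat GAGAGA, the CA repeat CACACA, and the homeodomain cores TAATTA and, in a variant form, TAATTG.
Eip75B region at 3L:17968770-17968870: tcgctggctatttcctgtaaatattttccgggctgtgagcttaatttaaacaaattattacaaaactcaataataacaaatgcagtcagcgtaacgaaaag
tara region at 3R:16235670-16235770: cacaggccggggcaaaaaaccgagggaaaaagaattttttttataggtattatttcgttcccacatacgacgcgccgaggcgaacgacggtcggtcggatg
Gug region at 3L:8455257-8455357: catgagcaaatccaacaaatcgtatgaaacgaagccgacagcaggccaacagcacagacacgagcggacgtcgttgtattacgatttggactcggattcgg
raskol region at X:17736256-17736356: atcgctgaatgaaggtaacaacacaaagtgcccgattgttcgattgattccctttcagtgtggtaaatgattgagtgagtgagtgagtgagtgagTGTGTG
All 4 windows lay in introns. The Eip75B, tara and Gug windows held none of these 4 six-mers, and the raskol window ended in a TG repeat, the other strand of CACACA.

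The next windows show both weak distal regions at OdsH, shown because OdsH is the paralogue beside unc-4, and the 3 strongest regions with GAGAGA outside UTRs. Capitals are used in the same way.
OdsH region at X:17802405-17802505: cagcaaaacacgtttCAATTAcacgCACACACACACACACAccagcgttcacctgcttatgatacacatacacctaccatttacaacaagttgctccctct
OdsH region at X:17799964-17800064: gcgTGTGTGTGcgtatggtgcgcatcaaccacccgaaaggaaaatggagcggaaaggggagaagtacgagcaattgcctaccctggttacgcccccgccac
REPTOR region at 3R:24564633-24564733: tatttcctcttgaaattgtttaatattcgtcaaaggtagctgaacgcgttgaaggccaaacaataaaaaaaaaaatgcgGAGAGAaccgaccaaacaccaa
Csk region at 3R:11648928-11649028: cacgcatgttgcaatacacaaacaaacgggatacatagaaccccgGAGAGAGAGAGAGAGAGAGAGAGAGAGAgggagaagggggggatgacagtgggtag
rdx region at 3R:14017730-14017830: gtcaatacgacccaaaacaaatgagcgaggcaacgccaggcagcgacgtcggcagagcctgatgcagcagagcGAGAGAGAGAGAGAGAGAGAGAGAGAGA
Both OdsH windows held a CA repeat on one strand or the other, and the stronger also held TAATTG on its other strand. The Csk and rdx windows held long unbroken GA runs, whereas the REPTOR window held a single GAGAGA. Csk encodes a kinase that restrains Src, rdx an adaptor for protein degradation of the Hedgehog effector Ci, and REPTOR a transcription factor of the TORC1 response.

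Signal and distance were used for the choice and are described here without a test. Signal, in the authors' units, ran from 31.6 to 55.4 with a median of 36.4. The first distal peak inside the band had rank 5003 and signal 55.40, and the last distal peak before it had rank 4988 and signal 55.54. At the lower edge the last peak inside had rank 9998 and signal 31.55, and the next distal peak outside had rank 10005 and signal 31.54. The nearest member summit lay 1001 bp from a start, against 1000 bp for the farthest peak left out. The median distance was 2470 bp, with quartiles of 1518 and 4614 bp and a maximum of 83076 bp. The edges in signal therefore fell within a continuous run of values and separated no distinct class of peaks.

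The global IDR of the members had a median of 0.350 and ran from 0.00596 to 0.843. Of the 1719 peaks, 215 had a value of 0.05 or less and 2 had a value of 0.01 or less. Lists by IDR were also deposited for each replicate alone, so these values need not compare the 2 biological replicates. The share of distal peaks rose as signal fell. It was 0.9% (95% Wilson interval 0.474 to 1.70) in the first 1000 ranks and 14.7% in ranks 4000 to 5000. Within the band it went from 19.3% (17.0 to 21.9) in ranks 5000 to 6000 to 49.9% (46.8 to 53.0) in ranks 9000 to 10000. It reached 68.4% in ranks 19000 to 20000.

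**Figure D1:**
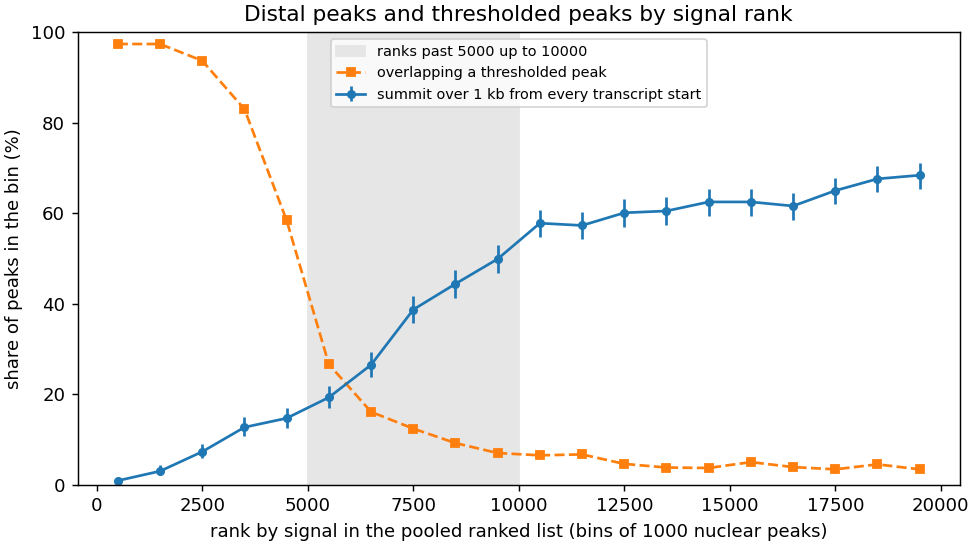
Share of nuclear peaks in each bin of 1000 ranks (percent, vertical axis) that were distal (blue, with 95% Wilson intervals) or overlapped a thresholded peak (orange), by rank in the pooled list; the grey band marks ranks 5000 to 10000. The distal share climbed from 0.9% to 68.4% while overlap with the thresholded list fell from 97.4% to 3.4%.

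Most weak distal peaks were overlapped by a ranked peak in both replicates. A peak of the replicate 1 ranked list overlapped 1351 of the 1719 (78.6%), and a peak of the replicate 2 ranked list overlapped 1532 (89.1%). Both lists overlapped 1188 members (69.1%, interval 66.9 to 71.2), and 24 members were overlapped by neither. The same share was 95.7% for the 350 called distal peaks, which are thresholded peaks over 1 kb from a start, and 37.0% for the 6194 distal peaks of ranks 10000 to 20000. The replicate 2 ranked list is longer, with 45920 nuclear peaks against 21280 for replicate 1, so the replicate shares differ in what they could reach. In the 1168 regions with a ranked peak in both, the median rank was 8725.5 in replicate 1 (2122 to 21153). In replicate 2 it was 10024 (1990 to 42596). Only 2 members overlapped a thresholded peak of replicate 1 and 8 a thresholded peak of replicate 2. These shares describe the lists and are not independent of the choice, since the pooled list was made from the same replicates.

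The weak distal regions lay mostly in introns, and many lay in coding exons. Of the 1694 regions, 926 (54.7%, interval 52.3 to 57.0) had their summit in an intron, 427 (25.2%) in a coding exon, 250 (14.8%) between genes, 73 in a UTR and 18 in a noncoding exon. The distal genome as a whole was 46.9% intron, 14.1% coding exon and 33.2% intergenic sequence. The 290 called distal regions had 182 summits in introns (62.8%), and the weak minus called difference was -8.10 percentage points (Fisher's exact test, two-sided, p = 0.0105, odds ratio 0.715). Without replicate 2 the difference was -6.32 points (exact p = 0.157), and without replicate 1 it was -8.83 points (exact p = 0.0733), so the difference passed the threshold of 0.05 in neither replicate's own list. In these 2 settings the called distal regions also came from that replicate's own thresholded list.

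Coding exons set the 2 groups further apart. They held 25.2% of weak distal regions and 9 of 290 called distal regions (3.10%), an odds ratio of 10.5 (Fisher's exact test, two-sided, p = 3.01e-22, a test added after the shares had been seen). The share was 37.1% in the distal regions of ranks 10000 to 20000. Summit windows were richer in G and C than windows 500 bp away, with medians of 49.5% and 41.6%, and the summit was the richer of the pair in 1147 regions (67.7%). The called distal regions had medians of 46.5% and 38.1%. Of the weak distal regions, 79 (4.66%) had a summit window mostly in lower case, that is masked as repeat in the assembly, and 2 lay in an annotated transposable element. The part of base composition in the difference between sets was not tested.

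Which genes the weak distal regions surrounded was counted by the nearest start of a coding transcript and by a window of the gene plus 5 kb on each side. The 1694 regions had 1298 nearest coding genes. Of these, 250 were nearest to at least 2 regions and 83 to at least 3, and those 83 genes took 312 regions (18.4%). By the window, 2698 of 13968 coding genes (19.3%) held a region. A region lay inside its nearest coding gene in 1029 cases (60.7%), inside another annotated gene only in 415 (24.5%) and inside no gene in 250.

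Gene length went with these counts. The median length was 2.16 kb for all coding genes, 4.03 kb for those with a region in the window and 31.1 kb for those nearest to at least 3. When genes were ordered by the distal sequence in their window, 4.44% of the lowest decile and 43.6% of the highest held a region. Counts of regions per gene are therefore given beside counts per Mb of distal sequence, which averaged 17.1 regions per Mb over the genome. By chromosome arm the density was 21.6 on 2R, 19.4 on 3R, 17.0 on 3L, 15.98 on 2L and 14.5 on the X, with 1 region on chromosome 4 and 0 on the Y.

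Eip75B, which encodes an ecdysone-induced nuclear receptor, had more weak distal regions than any other coding gene by nearest start. All 13 lay inside the gene (FBgn0000568, 3L:17950953-18064696 on dm6, minus strand), 11 in introns and 2 in coding exons. Their pooled signals ran from 33.9 to 49.0. In replicate 1, 12 of the 13 had an overlapping ranked peak, with signals from 18.6 to 37.9, and in replicate 2 all 13 had one, with signals from 7.01 to 25.6. When the same rule was applied to each replicate's own list, Eip75B had 8 regions in replicate 1 and 12 in replicate 2. Its promoter held a thresholded peak of signal 61.0, close above the band, and 2 called distal regions lay in its window.

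tara, which encodes a nuclear protein named taranis that works with cell cycle regulators, had the second highest number. Its 10 regions were all intronic (FBgn0040071, 3R:16225651-16260329, plus strand). Pooled signals ran from 35.0 to 47.7, those of replicate 1 from 15.96 to 59.7, and those of replicate 2 from 7.80 to 35.9 in the 9 regions that had a peak there. The strongest, 7096 bp upstream of its nearest tara start, had the lowest global IDR of all members, 0.00596. No thresholded peak lay at a tara start. The rule gave 10 regions in replicate 1 and 9 in replicate 2. By the window count, 12 regions at tara and 13 at Eip75B, tara held 33.1 regions per 100 kb of distal sequence against 13.4 for Eip75B.

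Gug, which encodes the corepressor Atrophin, had 7 regions, 6 of them intronic and 1 in a coding exon (FBgn0010825, 3L:8449922-8472669, plus strand). All 7 had a ranked peak in both replicates, with signals of 15.4 to 38.3 in replicate 1 and 7.23 to 25.7 in replicate 2. The rule gave 5 regions in replicate 1 but 1 in replicate 2. Unlike tara, Gug had a thresholded peak of high signal, 416, at its own start.

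raskol, which encodes a Ras GTPase activating protein, had 6 regions, of which 2 were intronic, 3 in coding exons and 1 in a UTR (FBgn0261570, X:17710144-17752007, plus strand). Its own start carried a thresholded peak of signal 912. Only 3 of its 6 regions had a ranked peak in both replicates, and the rule gave 2 regions in replicate 1 and 4 in replicate 2. raskol is the upstream neighbour of the unc-4 locus on the X.

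**Figure D2:**
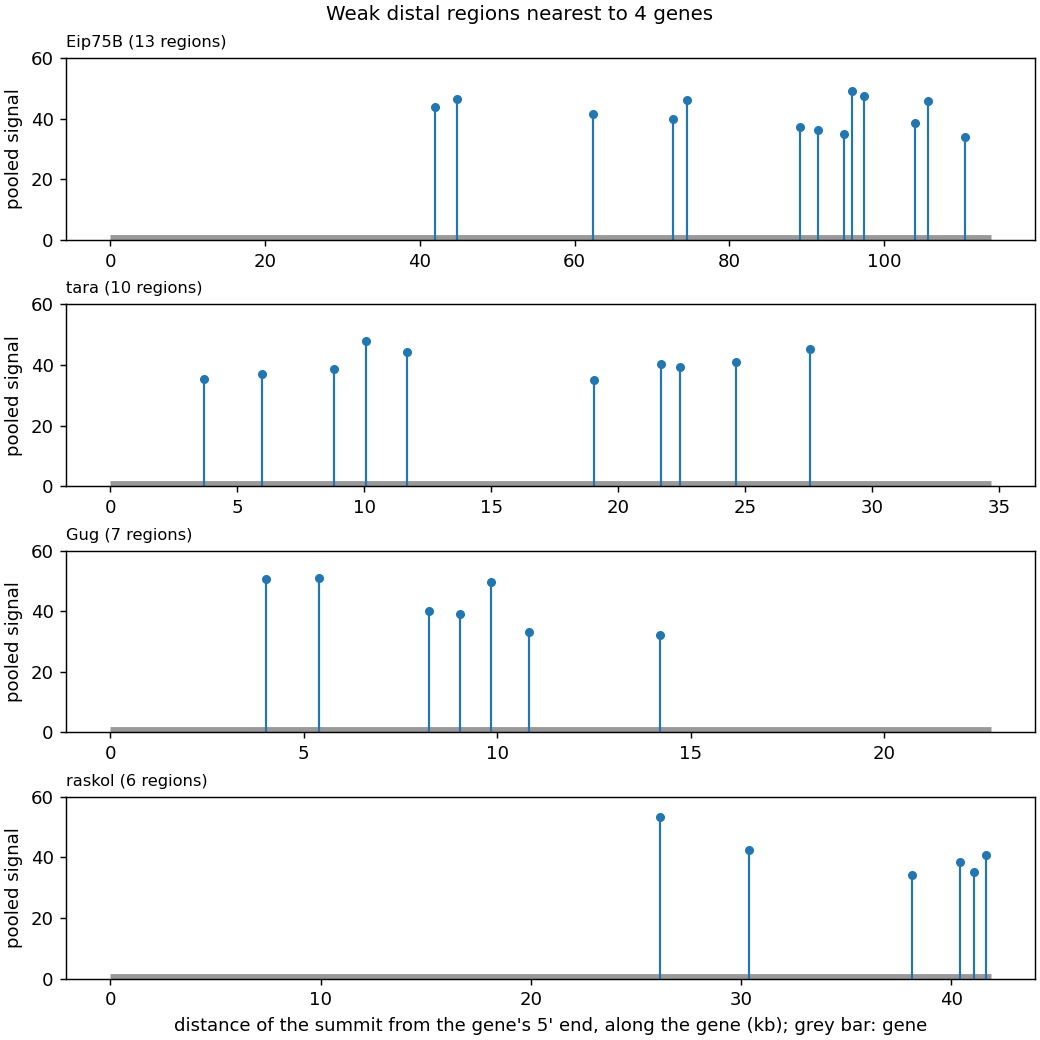
Pooled signal (authors' units, vertical axis) of each weak distal region nearest to Eip75B, tara, Gug and raskol, by distance of its summit from the 5' end of the gene (kb, along the gene); the grey bar is the gene and each stem is 1 region. The 13, 10, 7 and 6 regions all lay inside their genes, with signals from 32.2 to 53.2. They did not cover the genes evenly: raskol summits ran from X:17736306 to X:17751791 in a gene that starts at X:17710144.

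unc-4 itself (FBgn0024184, X:17768569-17778708) had no weak distal region in its window. OdsH (FBgn0026058, X:17791010-17814011) had 2, both intronic and both with a ranked peak in each replicate. The first, 9004 bp into the gene, had a pooled signal of 39.1, with 32.4 in replicate 1 and 10.5 in replicate 2. The second, 11445 bp into the gene, had a pooled signal of 46.6, with 22.9 in replicate 1 and 20.4 in replicate 2. The replicates ordered these regions differently, and neither unc-4 nor OdsH had a thresholded peak at its own start. Applied to single replicates, the rule gave OdsH 2 regions in each, and unc-4 none in replicate 1 and 2 in replicate 2.

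The other genes with 4 or 5 nearest regions, taken by rank of count and then summed signal, came next. The genes with 5 regions each were Glut4EF, mam, the Notch coactivator Mastermind, gpp, the histone H3 methyltransferase Dot1, px, named for its wing vein phenotype, Msp300, a nuclear envelope linker of muscle, and the deubiquitinase gene Usp15-31. Genes with 4 included the chromatin remodelling genes Bicra, tou and kis, the insulin receptor gene InR, the ETS factor genes aop and Eip74EF, the BTB factor gene psq, the Hippo pathway kinase gene wts, the hypoxia factor gene sima, and heca. The replicates differed at several of these. psq had 7 regions in replicate 1 and 0 in replicate 2, and Glut4EF had 10 and 3, whereas kis had 3 and 4 and Eip74EF 3 and 4. By the window count, sbb had 8 regions, simj and SKIP 7 each, and ush 6, but only 1 of the SKIP regions was nearest to a SKIP start.

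Many genes beside weak distal regions carried a thresholded peak at their own start. That was so for 656 of the 1298 nearest genes (50.5%, interval 47.8 to 53.3), for 54 of the 83 nearest to at least 3 regions (65.1%, 54.3 to 74.4) and for 4359 of the 12670 other coding genes (34.4%, 33.6 to 35.2). These shares were not adjusted for gene length or activity, whose part was not tested. Weak distal regions lay at a median of 6123 bp from the nearest thresholded summit, and 739 (43.6%) lay within 5 kb of one. Another weak distal region lay within 5 kb of 515 of them (30.4%).

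Density around genes grouped by function was described for 19 lists beside the whole distal genome, with 95% Poisson intervals that cover counting error only. Around the 24 genes of ecdysone reception and response there were 37 regions, or 46.4 per Mb, which was 2.71 times the genome's 17.1 (interval 1.91 to 3.73). Of these genes 13 (54.2%) held a region, against 19.3% of coding genes, but their median length was 21.8 kb against 2.16 kb. After Eip75B with 13 came Eip74EF and EcR, the receptor gene, with 4 each, and Hr4, another nuclear receptor gene, with 3. Eip93F and Hr39 had none. Without Eip75B the ratio was 2.00 (1.28 to 2.98), from 24 regions.

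Genes of BTB domain factors had a ratio of 2.33 (1.52 to 3.41). Of the 14, 10 (71.4%) held a region, against 19.3% of coding genes, but their median length was 51.9 kb against 2.16 kb. psq and chinmo led with 5 each, while br and ab had none. Genes of the Notch pathway and the E(spl) complex had a ratio of 2.57 (1.44 to 4.25), with 15 regions around 11 of 24 genes (45.8%, median length 1.165 kb). mam held 5 of them, and E(spl)mbeta-HLH, neur, a ubiquitin ligase gene of Notch signalling, and gro, the Groucho corepressor gene, held 2 each. By nearest start only 9 regions fell to genes of this list, at 5 genes, and none fell to E(spl)mbeta-HLH or gro. Without mam the ratio was 2.15 (1.03 to 3.95). Genes of Wnt, Hedgehog, Dpp and receptor tyrosine kinase signalling had a ratio of 1.93 (1.37 to 2.64), with regions at 20 of 48 genes (41.7%, median length 14.2 kb). InR, aop, shn, which encodes the Dpp effector Schnurri, and fz2, a Wnt receptor gene, held 4 each, and Wnt5 and Alk none.

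Gene classes of neuronal surfaces and excitability had pooled ratios below 1. The dpr and DIP cell recognition genes had 11 regions over 1.62 Mb of distal sequence, a ratio of 0.396 (0.198 to 0.708). dpr12 held 3 of the 11, and 22 of the 32 genes held none. Ion channel and transmitter receptor genes had a ratio of 0.416 (0.221 to 0.711), with regions at 12 of 56, among them nAChRalpha6 with 2. Without replicate 2 this ratio was 0.704 (0.441 to 1.07), an interval that held 1. Axon guidance and adhesion genes had 40 regions and a ratio of 0.671 (0.480 to 0.914), led by sli, which encodes the midline repellent Slit, with 5. Without replicate 1 it was 0.784 (0.60 to 1.01). Counting only summits over 2 kb from a start gave 0.831 (0.561 to 1.19) for this list and 0.633 (0.327 to 1.11) for the ion channel list. The shares of genes with a region in these 3 lists were 31.3% (18.0 to 48.6), 21.4% (12.7 to 33.8) and 37.9% (27.1 to 49.9). The background was 19.3%, which the first 2 intervals held. Their genes were long, with medians of 32.5, 24.1 and 37.2 kb against 2.16 kb for all coding genes. The axon guidance list thus had a share above the background and a pooled density ratio below 1.

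Lists closer to Unc-4 in kind, mainly of transcription factor genes, had pooled ratios on both sides of 1. The 72 homeodomain factor genes had 21 regions and a ratio of 0.885 (0.548 to 1.35), with 3 each at zfh1 and dve and none at B-H1 and B-H2. The 10 genes for Hox factors and cofactors had 9 regions and a ratio of 1.10 (0.504 to 2.09), with 3 each at hth and Ubx, but without replicate 2 the ratio was 0.490 (0.134 to 1.25). The list of neuroblast and neuronal bHLH, Sox and zinc finger factors had a ratio of 1.07 (0.611 to 1.74). It was led by brat with 4 regions and Rbp6 with 3, which are not transcription factor genes. Without brat its ratio was 0.840 (0.434 to 1.47). Segmentation and patterning factors had 0.776 (0.355 to 1.47), or 0.431 (0.140 to 1.01) without replicate 2. These intervals all held 1.

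Lists for other tissues were counted in the same way. The muscle list had a ratio of 1.26 (0.815 to 1.86), with 6 regions at Msp300 and 2 each at Mhc and Mef2. Without Msp300 the muscle ratio was 1.04 (0.626 to 1.62). Trachea and epidermis had 1.73 (0.991 to 2.82), led by shot with 5, and without shot the ratio was 1.38 (0.690 to 2.47). With shot counted, the interval did not hold 1 without replicate 2, at 2.06 (1.24 to 3.22), or without replicate 1, at 1.91 (1.21 to 2.87). Glia had 1.27 (0.413 to 2.97) from 5 regions, 1 of them at repo. Gut, fat body and blood had 1.93 (1.03 to 3.31), of which ush held 6 regions, and without ush the ratio was 1.22 (0.489 to 2.50). The receptor genes for odours and tastes had 0.943 (0.516 to 1.58) and the cuticle protein genes 0.918 (0.337 to 2.00). With only summits over 2 kb from a start counted, the receptor gene ratio was 0.334 (0.0688 to 0.975). In that setting the muscle ratio was 1.66 (1.02 to 2.57).

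Ribosomal protein and proteasome genes, compact with median lengths of 1.33 and 1.39 kb, had ratios of 2.55 (1.43 to 4.21) and 2.45 (1.12 to 4.65). Without replicate 1 the proteasome ratio was 1.67 (0.720 to 3.29). Their regions mostly belonged to neighbours by nearest start, since only 2 of the 15 ribosomal regions and none of the 9 proteasome regions had a gene of the list as the nearest. When only summits over 2 kb from a start were counted, the ribosomal ratio was 1.12 (0.306 to 2.88) and the proteasome ratio 0.450 (0.0114 to 2.50). The lists also differed in how the ratio went from called to weak and then to lower-ranked distal regions. For the ecdysone list it was 4.70 in called distal regions, 2.71 in weak distal regions, 1.87 in ranks 10000 to 20000 and 1.498 in deeper ranks. For ribosomal protein genes it was 5.96, 2.55, 2.59 and 2.79, and for the dpr and DIP genes 0.210, 0.396, 0.331 and 0.475. No test was made of a list.

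**Figure D3:**
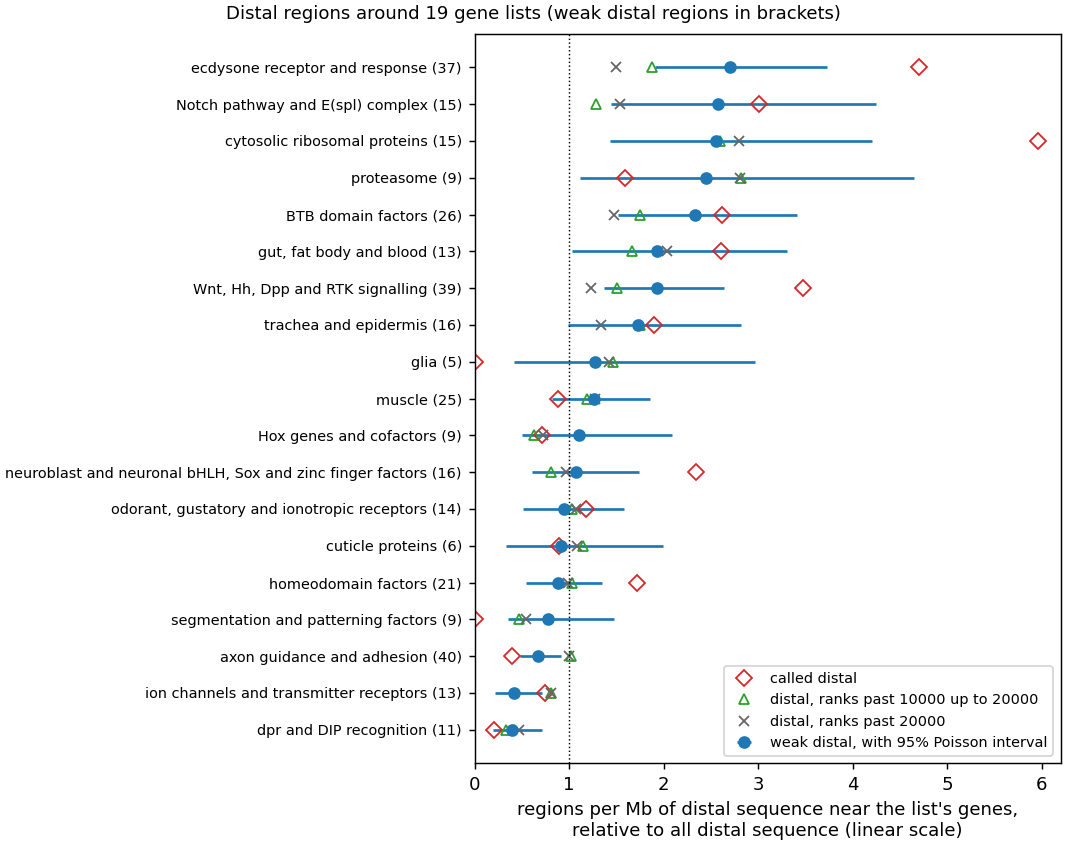
Density of distal regions around the genes of 19 lists (gene plus 5 kb on each side), as regions per Mb of distal sequence divided by the same over all distal sequence (linear horizontal axis; 1 is the genome average). Blue points are weak distal regions with 95% Poisson intervals and their number in brackets; red, green and grey marks are called, lower-ranked and lowest-ranked distal regions. The ecdysone list lay highest among weak distal regions at 2.71 and the dpr and DIP list lowest at 0.396.

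Sequence was not used in choosing the members and could be tested. Each six-mer was scored as present or absent on either strand up to 50 bp from the summit, and likewise in a flank centred 500 bp away. With an exact McNemar test and Benjamini-Hochberg adjustment over all six-mers, 235 (11.3%) were more frequent at weak distal summits and 235 (11.3%) less frequent. The sets split by base composition. Of those more frequent, 206 had at most 2 A or T, and of those less frequent, 232 had at least 4. AGAGAG was among the most clearly raised, present in 8.74% of summit windows and 3.07% of flanks, followed by GAGAGA and then CGCACA, at 10.6% and 4.55%. AAATAT was present in 7.67% of summits and 18.2% of flanks.

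Of 12 motifs named for known factors, 6 passed the same exact test with adjustment over the 12. These motifs were chosen with earlier results of these data known, so their adjusted p-values, here and between sets, do not rest on an independent choice. GAGAGA, bound by GAGA factor and Pipsqueak, was present in 141 of 1694 summit windows (8.32%) and 50 flanks (2.95%), a difference of 5.37 percentage points (adjusted exact p = 3.90e-11), and in 3.44% of all distal windows of this width. In the regions chosen from replicate 2 alone, that is without replicate 1, the difference was 2.58 points (adjusted exact p = 0.000656). CACACA was present in 11.9% of summits and 7.79% of flanks (adjusted exact p = 0.000295) and in 8.13% of all distal windows. GATAAG, the GATA factor core, was present in 2.95% and 5.37% (adjusted exact p = 0.00115), but its adjusted p was 0.105 without replicate 2 and 0.193 without replicate 1.

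The homeodomain cores were less frequent at weak distal summits than beside them. TAATTA was present in 58 summit windows (3.42%) and 106 flanks (6.26%; adjusted exact p = 0.000367), and in 6.63% of all distal windows. TAATTG was present in 5.19% and 8.74% (adjusted exact p = 0.000295), a difference of -3.54 points. Its difference was -2.13 points without replicate 2 (adjusted exact p = 0.0394) and -1.99 points without replicate 1 (adjusted exact p = 0.0206). A pair of cores, TAAT and ATTA separated by 3 bases, was present in 8 summit windows and 18 flanks (adjusted exact p = 0.110). TTTATG, a core of Caudal and Abd-B sites, was present in 9.27% and 11.6% (adjusted exact p = 0.0484). This call was lost without replicate 2, at an adjusted exact p of 0.105, and outside coding exons the difference turned to 0.158 points. The other motifs had adjusted exact p from 0.108 to 0.561. They were CAGGTA, the core known for the early activator Zelda, the E-box CACGTG of Myc kind, the E-box known from proneural factors, CAGCTG, the TGACAG core of Homothorax, and TATCGA, the core of DREF and BEAF-32 sites. Both E-boxes passed in the regions of each replicate alone. CAGCTG was higher at summits by 3.31 points without replicate 2 (adjusted exact p = 0.000196) and by 1.76 points without replicate 1 (adjusted exact p = 0.0206), against 1.48 points in the pooled regions. CACGTG was higher by 1.24 points (adjusted exact p = 0.0180) and 1.13 points (adjusted exact p = 0.00920), against 0.885 points pooled. Since the summits were richer in G and C than their flanks, composition moved with these differences, and its part was not tested.

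Against called distal regions the weak ones held fewer of several motifs. GAGAGA was present in 8.32% of weak and 19.7% of called distal regions (Fisher's exact test, odds ratio 0.371, adjusted over 24 comparisons p = 6.83e-07). TATCGA was present in 2.77% and 11.7% (odds ratio 0.215, exact adjusted p = 2.02e-08). This difference, -8.95 points, was -19.8 points without replicate 2 and -15.3 points without replicate 1. Leaving out a replicate also changed the comparison sets, which then came from the other replicate's own lists, so these values compare other called regions. GATAAG was present in 2.95% and 6.55% (exact adjusted p = 0.0270). The GATAAG difference missed the threshold without replicate 2, at an adjusted exact p of 0.260, and without replicate 1, at 0.156. TAATTA was present in 3.42% of weak and 3.45% of called distal regions, a difference of -0.0244 percentage points. Against the 2433 weak regions near promoters in the same rank band, TATCGA was again lower, at 2.77% and 5.14% (exact adjusted p = 0.00145), but without replicate 1 this difference had an adjusted p of 0.118. TTTATG was higher, at 9.27% and 6.86% (exact adjusted p = 0.0270), and without replicate 1 its adjusted p was also 0.118.

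The GA repeat thinned out with rank inside the band. It was present in 14.6% (10.04 to 20.9) of weak distal regions of ranks 5000 to 6000, in 11.4%, 9.04% and 6.05% of the next bins, and in 6.13% (4.33 to 8.62) of ranks 9000 to 10000. In ranks 15000 to 20000 it was present in 3.51% of summits and 3.45% of flanks. TATCGA fell between sets instead, from 11.7% of called distal regions to 3.66% in ranks 5000 to 6000 and 2.25% in ranks 9000 to 10000. Called distal peaks were chosen by IDR and not by rank, with signals from 2.37 to 550 and a median of 70.4. The change of rule and the change of signal cannot be told apart here. The flank share of GAGAGA stayed between 1.57% and 4.19% over the 5 bins.

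**Figure D4:**
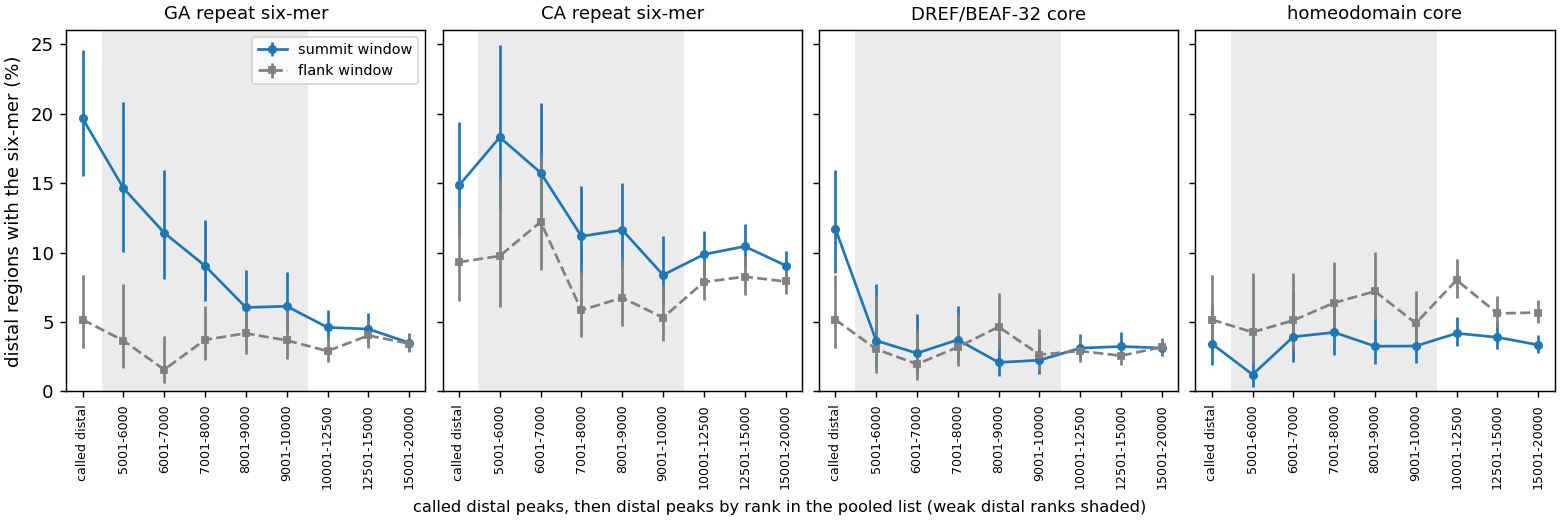
Share of distal regions (percent, vertical axis) with a six-mer in the summit window (blue) or the flank window (grey), with 95% Wilson intervals, for called distal regions and then for bins of rank in the pooled list; the shaded bins hold the weak distal regions. The GA repeat six-mer fell from 19.7% to 3.51% at summits, the DREF and BEAF-32 core fell between called and weak regions, and the homeodomain core lay below its flank in each bin.

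By location, the GA repeat was present in 102 of 926 intronic regions (11.0%, flank 2.92%), in 16 of 250 intergenic regions (6.40%, flank 2.00%) and in 9 of 427 coding exon regions (2.11%, flank 3.28%). CACACA was present in 15.1% of intronic and 3.28% of coding exon regions. TAATTA was present in 4.97% of intronic regions (flank 5.94%) and in 1 of 427 coding exon regions (flank 5.62%). The raised share of GA and CA repeats was thus seen in intronic and intergenic regions, and the lowest share of TAATTA in coding exons; the difference between locations was not tested.

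Around the summit the GA repeat formed a broad rise. In bins of 50 bp it was present in 4.19% of weak distal regions at the summit and 1.36% at 500 bp upstream on the plus strand coordinate. The called distal regions had 11.0% and 2.07% in the same bins.

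**Figure D5:**
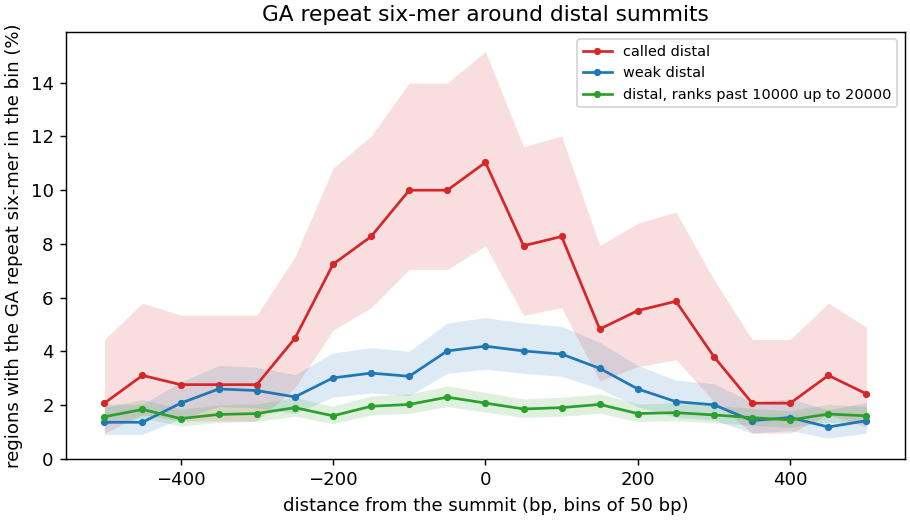
Share of distal regions (percent, vertical axis) with the GA repeat six-mer in bins of 50 bp, by distance from the summit (bp); shading gives 95% Wilson intervals. Called distal regions peaked at 11.0% at the summit, weak distal regions at 4.19%, and distal regions of ranks 10000 to 20000 stayed nearly level.

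Among the genes nearest to most regions, the GA repeat was present in 2 of 13 regions at Eip75B, 2 of 10 at tara, 0 of 7 at Gug and 1 of 6 at raskol. TAATTA was present in 1 of the 13 Eip75B regions and in none of the tara, Gug or raskol regions. CACACA was present in both OdsH regions and in 2 of the 7 Gug regions.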

How the data were processed

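Per the labels, ChIP-seq was run on 2 biological replicates of whole embryos with chromatin sonicated to 200 to 800 bp. The authors deposited peak lists on dm6, ranked or thresholded by IDR, for each replicate and for both together, and each list gives every peak a signal, on a scale the sources do not name, so signals compare only within a list. In the deposited ranked lists a further column holds the −log10 of an IDR, comparable to a q-value, and 1 other column the summit offset. The aligner and peak caller, each not given in the sources used here, could change which weak peaks were listed. Read depth is unknown, since peak lists hold no reads, so intervals cover only the counting of regions. In the pooled lists 16 columns of separate inputs to IDR were not used.

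The pooled ranked list used was the one that holds all 4921 thresholded peaks, and 490 nuclear signals were tied. Transcript starts, transposable elements included, came from Ensembl BDGP6.54 release 115, and sequence from the RefSeq assembly of dm6; printed positions count from 1. Overlap meant at least 1 bp, and peaks that overlapped were merged. Members were 516 bp wide. A member's replicate signal is that of its overlapping peak in that replicate's ranked list.

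Locations and motifs were compared between sets with Fisher's exact test, and six-mers with exact McNemar tests against a flank on a side drawn with a fixed seed, two-sided, adjusted by Benjamini-Hochberg at 0.05. The six-mer test was tested on simulated data. Regions are not replicates: these tests compare regions of 1 experiment, and neighbouring regions are not fully independent. Named genes were unc-4, OdsH, the 20 coding genes with the most regions by nearest start, the 10 with the most by window, and per list up to 4 genes with most and 2 without. Members, lists and motifs were chosen with earlier results of these data known. Of the list names, 965 matched the annotation and 18 did not. Alternatives were other ranks, distances, windows, flanks, lists and each replicate alone. Python 3.11.15, numpy 2.4.6, pandas 2.3.3, scipy 1.17.1 and matplotlib 3.10.9 were used.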

Additional observations from a re-analysis of the deposited data

How the results depend on the processing

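No paired analysis was possible because there was 1 group with 2 replicates. GAGAGA was more frequent at summits than in flanks and less frequent than in called distal regions, past the threshold, under every alternative tried, with differences of 2.58 to 8.72 points and of -16.9 to -8.25 points. Leaving out each replicate, which also changed the called distal set, gave an intron difference of -8.83 to -6.32 points (threshold missed in both). It gave 2 to 5 motif differences passing of 24, against 5. The intron difference also missed the threshold in ranks 5000 to 7500 (-2.52 points), over 2 kb from a start (-3.69), among members overlapped in both replicates (-5.91) and with transposable element starts left out (-5.89). Motif differences passing numbered 2 in ranks 5000 to 7500, 3 among members overlapped in both replicates and 8 without coding exons, and 3 motifs differed from flanks in ranks 5000 to 7500, against 6.

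Counts moved where fewer or more regions, bases or genes were counted. Members numbered 602 in ranks 5000 to 7500, 1117 in ranks 7500 to 10000 and 1041 over 2 kb from a start. Six-mers more and less frequent at summits numbered 51 and 75, 99 and 143, and 118 and 149 in those 3 settings. They numbered 412 and 356 within 100 bp, 106 and 139 with flanks 1000 bp away, and 128 and 135 without coding exons, and 147 were more frequent among members overlapped in both replicates. For the flank and coding exon settings the cause was not tested. Coding genes with a region numbered 1072 in ranks 5000 to 7500, 1267 over 2 kb from a start, 4162 with a 10 kb window and 1298 by nearest start. The TTTATG difference from flanks turned to 0.158 points without coding exons, and the cause was not tested. The transposable element and coding exon settings were added after seeing the data. Depth is unknown, so a region missing from a list was not shown to lack signal.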
